A study of Mus musculus with 18 samples.

Results

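Hearts of mice at day 7 after ischemia-reperfusion (IR) were compared with hearts of sham-operated mice (SHAM) across all genes. The comparison takes the 6 libraries titled IR and the 6 titled SHAM, 12 of the 18 libraries of the series, and no measured value entered their choice. The third group of the series, ischemia-reperfusion with decursin, took part in the fit through the spread between its libraries and the filter on low counts, and not in the contrast. Per the labels, the SHAM and IR animals alike were adult male C57BL/6 wild-type mice of about 20 g. Each library holds heart RNA of 1 animal. The sources used here give neither the part of the heart taken nor the length of the ischemia. The labels name a batch for each group, so batch and group cannot be told apart in any value below. The bulk libraries hold RNA of every cell type of the tissue, so fewer cells of a type and less RNA per cell cannot be told apart.

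When a coronary artery is closed and reopened, heart muscle in its territory dies, leukocytes clear the dead cells, and fibroblasts lay down a collagen scar. Adult cardiomyocytes are packed with mitochondria and contractile filaments, and they use muscle-specific forms of many enzymes and structural proteins for which other cells use a second gene. At the time of early scar formation, heart RNA therefore mixes surviving muscle with many fibroblasts, macrophages and vessel cells, and the genes below are read with that mixture in view.

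Libraries of both groups held 27.5 to 34.5 M counts. The marker genes of cardiomyocytes summed to 100474 to 116524 CPM in SHAM and 56508 to 76965 CPM in IR (CPM, counts scaled to library size with TMM factors), those of macrophages to 311 to 448 CPM in SHAM and 958 to 1759 CPM in IR, and those of fibroblasts to 2516 to 3130.3 CPM in SHAM and 8201 to 11052 CPM in IR, with no overlap between the groups in any of these 3 sums. The fibroblast sum in IR was largely that of scar matrix genes. Col3a1 averaged 212 CPM in SHAM and 3593 CPM in IR, and Col1a1 110 and 2186 CPM. That list had 11 rises and 1 fall among 13 members, and the fall was that of Gsn (-0.66). No member of the 3 lists was at 0 over the SHAM libraries, and the cardiomyocyte markers that define heart tissue were abundant in all 12 libraries. The 13 mitochondrially encoded genes took 31.1 ± 1.56% of counts in SHAM (range 28.4 to 32.8%) and 24.4 ± 3.06% in IR (20.1 to 28.3%), a difference of -6.73 percentage points (two-sided exact permutation test, p = 0.00216, the smallest it can give). In 2 IR libraries, replicates 3 and 4, the female-specific RNA Xist had 14232 and 14072 counts and the Y-linked gene Ddx3y had 0, against the male label. The mitochondrial share was 23.2% and 20.1% in replicates 3 and 4 and 22.4 to 28.3% in the other IR libraries. Calls of named genes that rest on the libraries with Xist are given with and without them. Over all genes, 3220 rose and 2604 fell without them, and 5652 of the 7079 calls below remained.

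Of 15088 genes tested, 7079 (46.9%) were called at a false discovery rate under 0.05 by edgeR's quasi-likelihood test. Of these 3810 (25.3% of those tested) rose and 3269 (21.7%) fell. The rises were larger than the falls: their median log2 fold change was 0.90, for -0.48 among the falls, and 1742 genes (11.5%) rose at least 2-fold while 272 (1.8%) fell at least 2-fold. In 2321 genes (15.4%) every IR library lay above every SHAM library, and in 1743 (11.6%) below. TMM scaling put the median gene at -0.00, and scaling to total counts alone put it at 0.31, under which 7012 genes rose and 1056 fell. Changes below are relative to the TMM centre, and a fall smaller than about 0.31 on the log2 scale lies above 0 with total counts. Among the 607 tested symbols of scar matrix and immune families, 431 rose and 27 fell. Among 12954 other genes with established symbols there were 3249 rises and 2977 falls. The remaining 1527 genes tested, with provisional, pseudogene, antigen receptor or sex-chromosome symbols, had 130 rises and 265 falls. Highly expressed genes were called down more often than up, with 331 falls and 101 rises among 581 genes at 200 CPM or more.

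**Figure D1:**
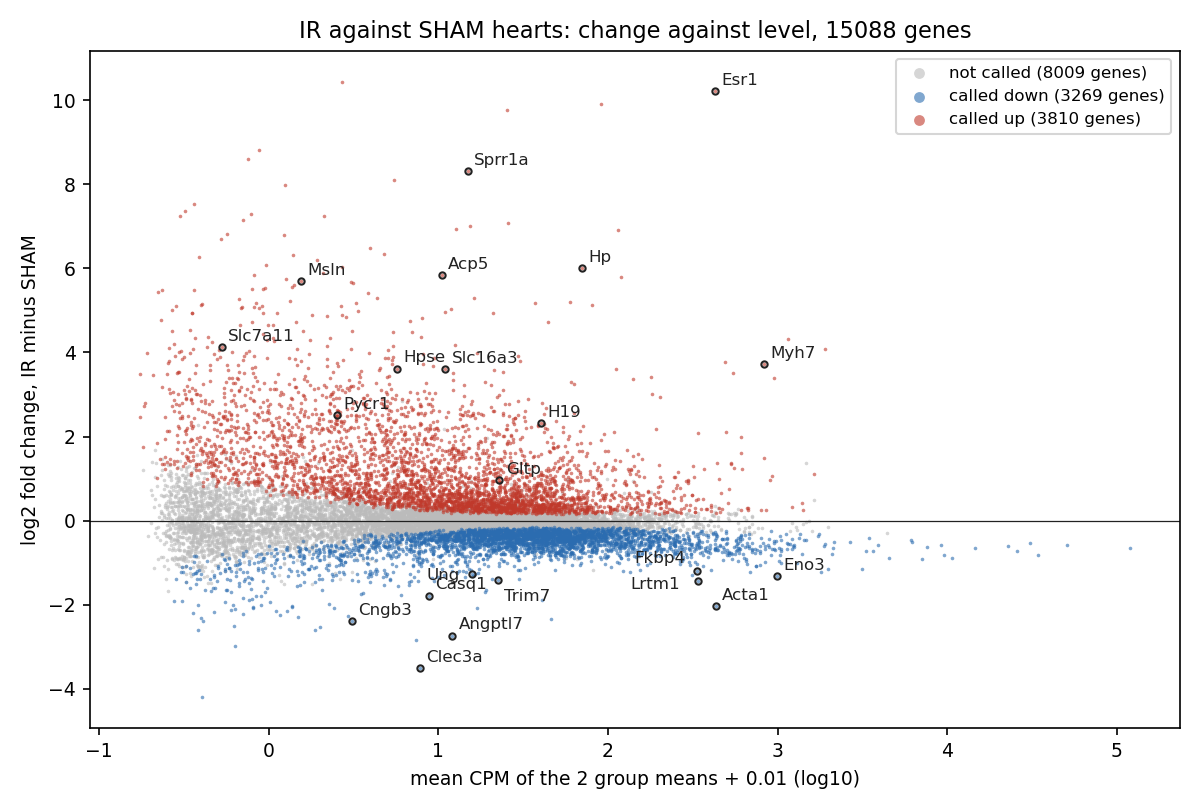
Log2 fold change of IR minus SHAM (vertical axis) against mean level (horizontal axis, log10 of the mean CPM of both groups plus 0.01) for the 15088 genes tested, coloured by call. Red points (3810 genes called up) reach a log2 change of 10, while blue points (3269 called down) lie mostly above -2 and hold most of the highly expressed genes.

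The 12 largest rises outside the scar and immune families, among genes whose IR mean reached 10 CPM, follow here. Those families were set aside by symbol alone, and several of the 12 genes are known from leukocytes. Hp, which encodes the haemoglobin scavenger haptoglobin, had 0.283, 0.976 and 5.0 CPM in SHAM and 12.9, 132 and 277 CPM in IR (lowest, median and highest library). Errors beside log2 fold changes are standard errors. No IR library overlapped SHAM in Hp, but IR replicates 3 and 6 (20.1 and 12.9 CPM) lay far below the other 4, and the highest held more than 10 times the lowest (log2 fold change 6.00 ± 1.29, adjusted p = 0.00132). Sprr1a, a cornified envelope gene that injured muscle and neurons switch on, had 0, 0.0720 and 0.241 CPM in SHAM and 11.2, 21.1 and 79.3 CPM in IR (log2 fold change 8.31 ± 1.12, adjusted p = 2.88e-05). Replicate 6 of IR alone exceeded 30 CPM, and the log2 change was 7.72 without it and 8.91 without SHAM replicate 6. Acp5, the tartrate-resistant phosphatase of osteoclasts and tissue macrophages, had 0.173, 0.351 and 0.489 CPM in SHAM and 8.96, 19.4 and 37.3 CPM in IR (log2 fold change 5.85 ± 0.78, adjusted p = 2.45e-05).

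Slc16a3 encodes the lactate exporter MCT4 of glycolytic cells, and Emb encodes embigin, an accessory chain of such transporters. Slc16a3 had 1.05, 1.57 and 2.70 CPM in SHAM and 12.4, 16.1 and 34.1 CPM in IR (log2 fold change 3.61 ± 0.46, adjusted p = 1.68e-05), and Emb had 0.363, 0.672 and 1.89 CPM in SHAM and 9.04, 15.2 and 22.4 CPM in IR (log2 fold change 3.95 ± 0.51, adjusted p = 1.59e-05). In both genes every IR library lay above every SHAM library. Hpse, the heparanase that cuts heparan sulfate chains, had 0.444, 0.902 and 1.11 CPM in SHAM and 6.49, 10.1 and 15.8 CPM in IR (log2 fold change 3.62 ± 0.41, adjusted p = 6.45e-06). Pik3r5, a regulatory subunit of the gamma form of phosphoinositide 3-kinase, rose by 3.72 ± 0.47 (adjusted p = 1.32e-05), and the survival gene Bcl2a1b of blood cells by 3.89 ± 0.51 (adjusted p = 1.59e-05). Bcl2a1b has near-identical copies, and the sources used here do not say how reads that match several copies were counted. The serine protease inhibitor gene Serpina3g, also one of a family of close copies, rose by 4.38 ± 0.61, and Slfn4, a Schlafen gene of myeloid cells, by 4.17 ± 1.01 (4.89 without SHAM replicate 5). Of 16 macrophage markers 15 rose as well, and of 9 neutrophil markers 6 rose. Within SHAM, replicates 2 and 5 were highest in Hp (5.0 and 4.85 CPM), in Slfn4 (2.45 and 3.78 CPM) and in the mean log2(CPM + 1) of the neutrophil list. Within IR, replicate 3 was lowest in that mean (0.79 above the SHAM mean), while replicate 6, lowest in Hp, lay at 2.43. The part of macrophages or neutrophils in the rises of these leukocyte genes was not tested.

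Myh7, the slow myosin heavy chain of the fetal mouse ventricle, was the only sarcomere gene among these rises. Its levels were 1141, 2282, 309, 1274, 3575 and 742 CPM in IR replicates 1 to 6, against 101, 162, 143, 108, 113 and 83.6 CPM in SHAM (log2 fold change 3.71 ± 0.56, adjusted p = 6.44e-05). All IR hearts were above all SHAM hearts, yet they differed among themselves by more than 10 times from replicate 3 to replicate 5. Esr1, the estrogen receptor gene, headed the rises by its mean alone (log2 fold change 10.22 ± 3.49, adjusted p = 0.0252). Its levels were 3895 CPM in IR replicate 3 and 1218 CPM in replicate 4, and 0.779, 0.895, 1.46 and 1.43 CPM in the other IR libraries, for 0.584 to 0.814 CPM in SHAM. The 2 high values are those of the libraries with Xist. Without them the change was 0.68 and did not pass the test (adjusted p = 0.878), and without replicate 3 alone it was 8.41 (adjusted p = 0.0520).

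The 12 largest falls outside those families, among genes whose SHAM mean reached 5 CPM, were of varied function. Angptl7, a secreted angiopoietin-like protein, had 12.6, 18.6 and 30.8 CPM in SHAM and 1.40, 2.65 and 6.23 CPM in IR (log2 fold change -2.73 ± 0.42, adjusted p = 7.65e-05), with no overlap. Clec3a and Chad, a lectin and a leucine-rich protein of cartilage matrix, fell by 3.51 and 2.85 on the log2 scale, in 6 and 5 of 6 IR libraries. Replicate 2 of IR held the highest level of both (3.76 and 4.91 CPM), and without it the changes were -4.21 and -3.45. Wif1, a secreted Wnt inhibitor, had 6.06, 8.64 and 14.6 CPM in SHAM and 1.23, 2.08 and 5.92 CPM in IR (log2 fold change -1.76 ± 0.32, adjusted p = 0.000207).

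Cngb3, a cyclic nucleotide-gated channel subunit known from cone photoreceptors, had 4.24, 5.0 and 6.47 CPM in SHAM and 0.540, 0.948 and 1.74 CPM in IR (log2 fold change -2.39 ± 0.29, adjusted p = 5.99e-06), so that every IR heart held less than 2 CPM and every SHAM heart more than 4 CPM. Casq1, the calsequestrin of fast skeletal muscle, had 10.3, 13.2 and 18.5 CPM in SHAM and 1.64, 3.43 and 8.55 CPM in IR (log2 fold change -1.78 ± 0.32, adjusted p = 0.000235). Acta1, the skeletal form of sarcomeric actin, had 345, 584 and 1158 CPM in SHAM and 70.9, 173 and 308 CPM in IR (log2 fold change -2.04 ± 0.46, adjusted p = 0.00175). Myh7 and Acta1, often named together as fetal genes of the stressed heart, thus moved in opposite directions. Cryba4, a lens crystallin gene, fell by 1.75 on the log2 scale, and the noncoding genes Atcayos and Foxo6os by 1.70 and 1.54. Both of these lie antisense to another gene, and the sources used here do not state the strand setting of the counting. Of 2 further genes in this group, Cyp26b1, which clears retinoic acid, had -2.07 and ATP8 of mitochondrial DNA had -2.34. Each was called only while SHAM replicate 1 was kept (-1.50 with adjusted p = 0.0603 and -0.83 with adjusted p = 0.0745 without it), and neither was called without the IR libraries with Xist (-2.03 with adjusted p = 0.0564 and -2.02 with adjusted p = 0.0704).

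**Figure D2:**
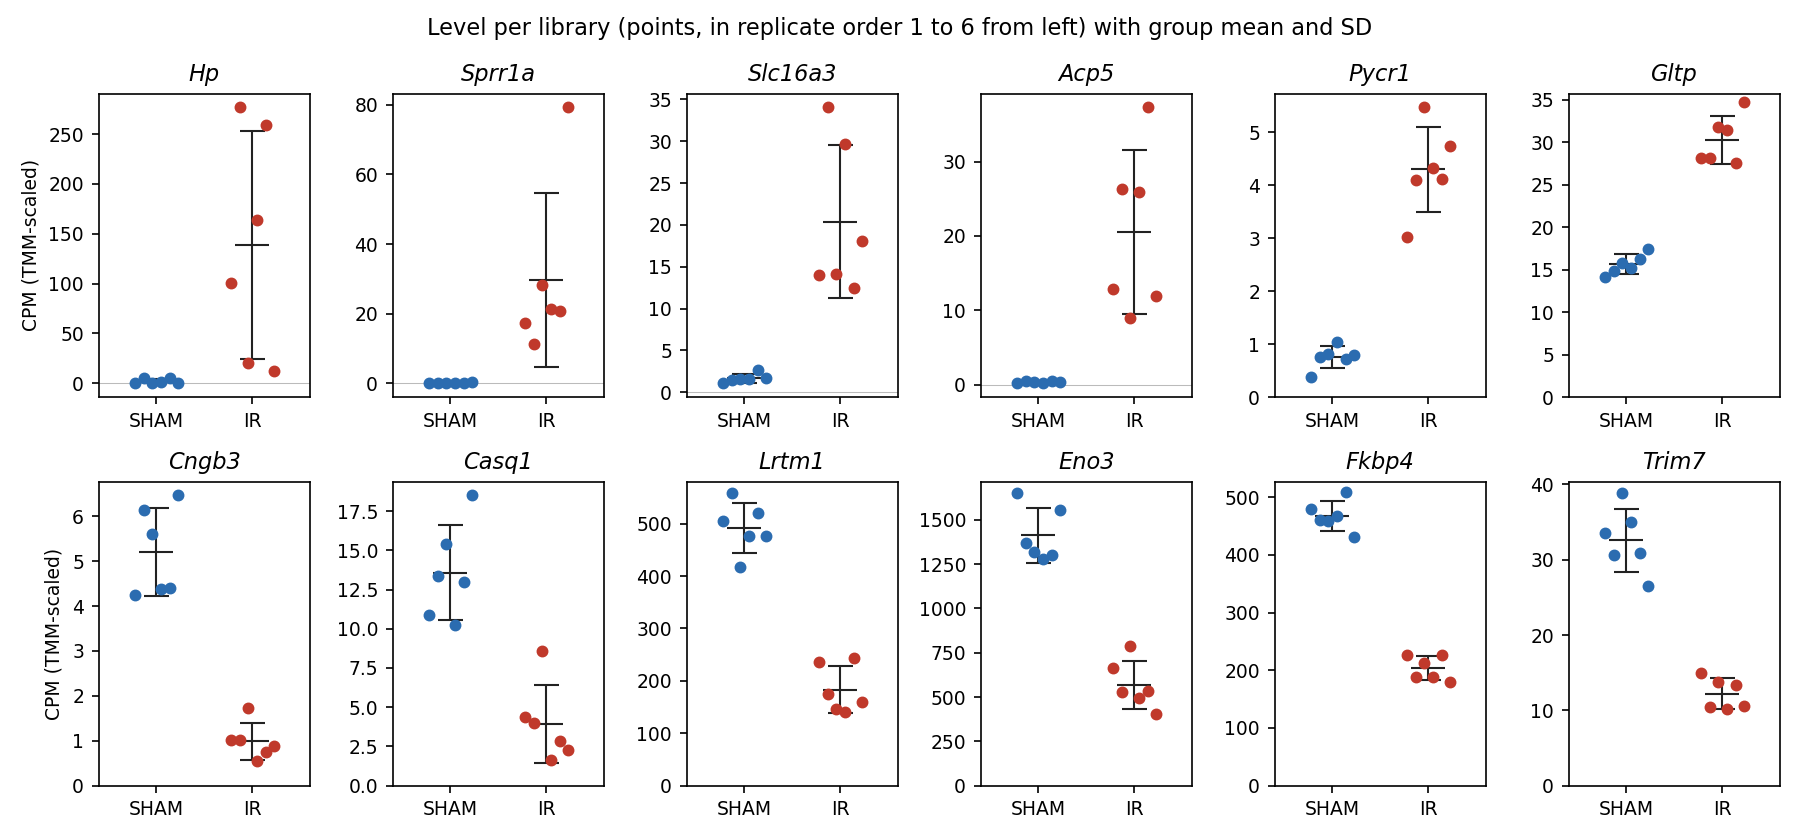
Level in CPM (vertical axis, linear, with 0 on it) of 12 genes in the 6 SHAM and 6 IR libraries, with bars for the group mean and SD. The groups do not overlap in any panel, the rises of Hp, Sprr1a, Slc16a3 and Acp5 spread more widely over IR hearts than those of Pycr1 and Gltp, and the falls in the lower row leave all IR hearts below all SHAM hearts.

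Among genes of at least 200 CPM, the 8 largest rises were those of Esr1, Myh7 and 6 matrix genes, and the largest falls included those of muscle enzymes. Lrtm1, a leucine-rich membrane protein gene of heart muscle, had 417, 491 and 558 CPM in SHAM and 141, 166 and 244 CPM in IR (log2 fold change -1.43 ± 0.18, adjusted p = 7.52e-06). Eno3, the muscle form of the glycolytic enzyme enolase, had 1279.7, 1343 and 1651 CPM in SHAM and 403, 529 and 786 CPM in IR (log2 fold change -1.32 ± 0.16, adjusted p = 6.49e-06). Fkbp4, an immunophilin that binds the HSP90 chaperone and steroid receptors, had 430.0, 464 and 509.6 CPM in SHAM and 179, 200.2 and 227 CPM in IR (log2 fold change -1.20 ± 0.12, adjusted p = 1.91e-06). In these 3 genes every IR heart was below every SHAM heart. Cox7a1, a heart and muscle form of a cytochrome oxidase subunit, fell by 1.17 on the log2 scale, Ckm, the muscle creatine kinase, by 1.22, and the water channel gene Aqp1 of capillaries by 1.29. ATP6 of mitochondrial DNA fell by 1.22, and it overlaps ATP8, so reads between them may be split.

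The 8 genes with the smallest p were mostly of modest fold and low spread. Gltp, which carries glycolipids between membranes, had 14.2, 15.5 and 17.5 CPM in SHAM and 27.6, 29.8 and 34.7 CPM in IR (log2 fold change 0.95 ± 0.08, adjusted p = 7.56e-07). Igsf8, a membrane partner of tetraspanins, had 7.81, 9.63 and 10.7 CPM in SHAM and 18.3, 19.4 and 20.7 CPM in IR (log2 fold change 1.03 ± 0.09, adjusted p = 1.52e-06). Zfp36l2, an RNA-binding protein that speeds decay of AU-rich messages, rose by 1.03 ± 0.09, and Vat1, a cytosolic oxidoreductase, by 1.19 ± 0.11. Ung, the uracil glycosylase of base excision repair, was the 1 fall among them: it had 18.4, 22.2 and 26.1 CPM in SHAM and 7.54, 9.44 and 11.3 CPM in IR (log2 fold change -1.28 ± 0.12, adjusted p = 1.52e-06). Apbb1ip, Wdfy4 and Itgax, which act in integrin activation, antigen cross-presentation and as the CD11c integrin of dendritic cells and macrophages, rose by 1.93, 1.97 and 3.35.

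Genes named beyond the fixed rule in the lists below are well-known members chosen after their values were seen. The 65 lists hold 1534 symbols, of which 1426 passed the filter on low counts, 455 rose and 345 fell. A member that passed the filter only through its IR level had to differ, so the rises of a list are a description, read beside the 25.3% of all genes and its falls beside the 21.7%. Relative to the median of all genes, list medians moved by at most 0.03 between TMM and total-count scaling. In absolute terms 15 of the 27 list medians below 0 were above 0 with total counts.

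**Figure D3:**
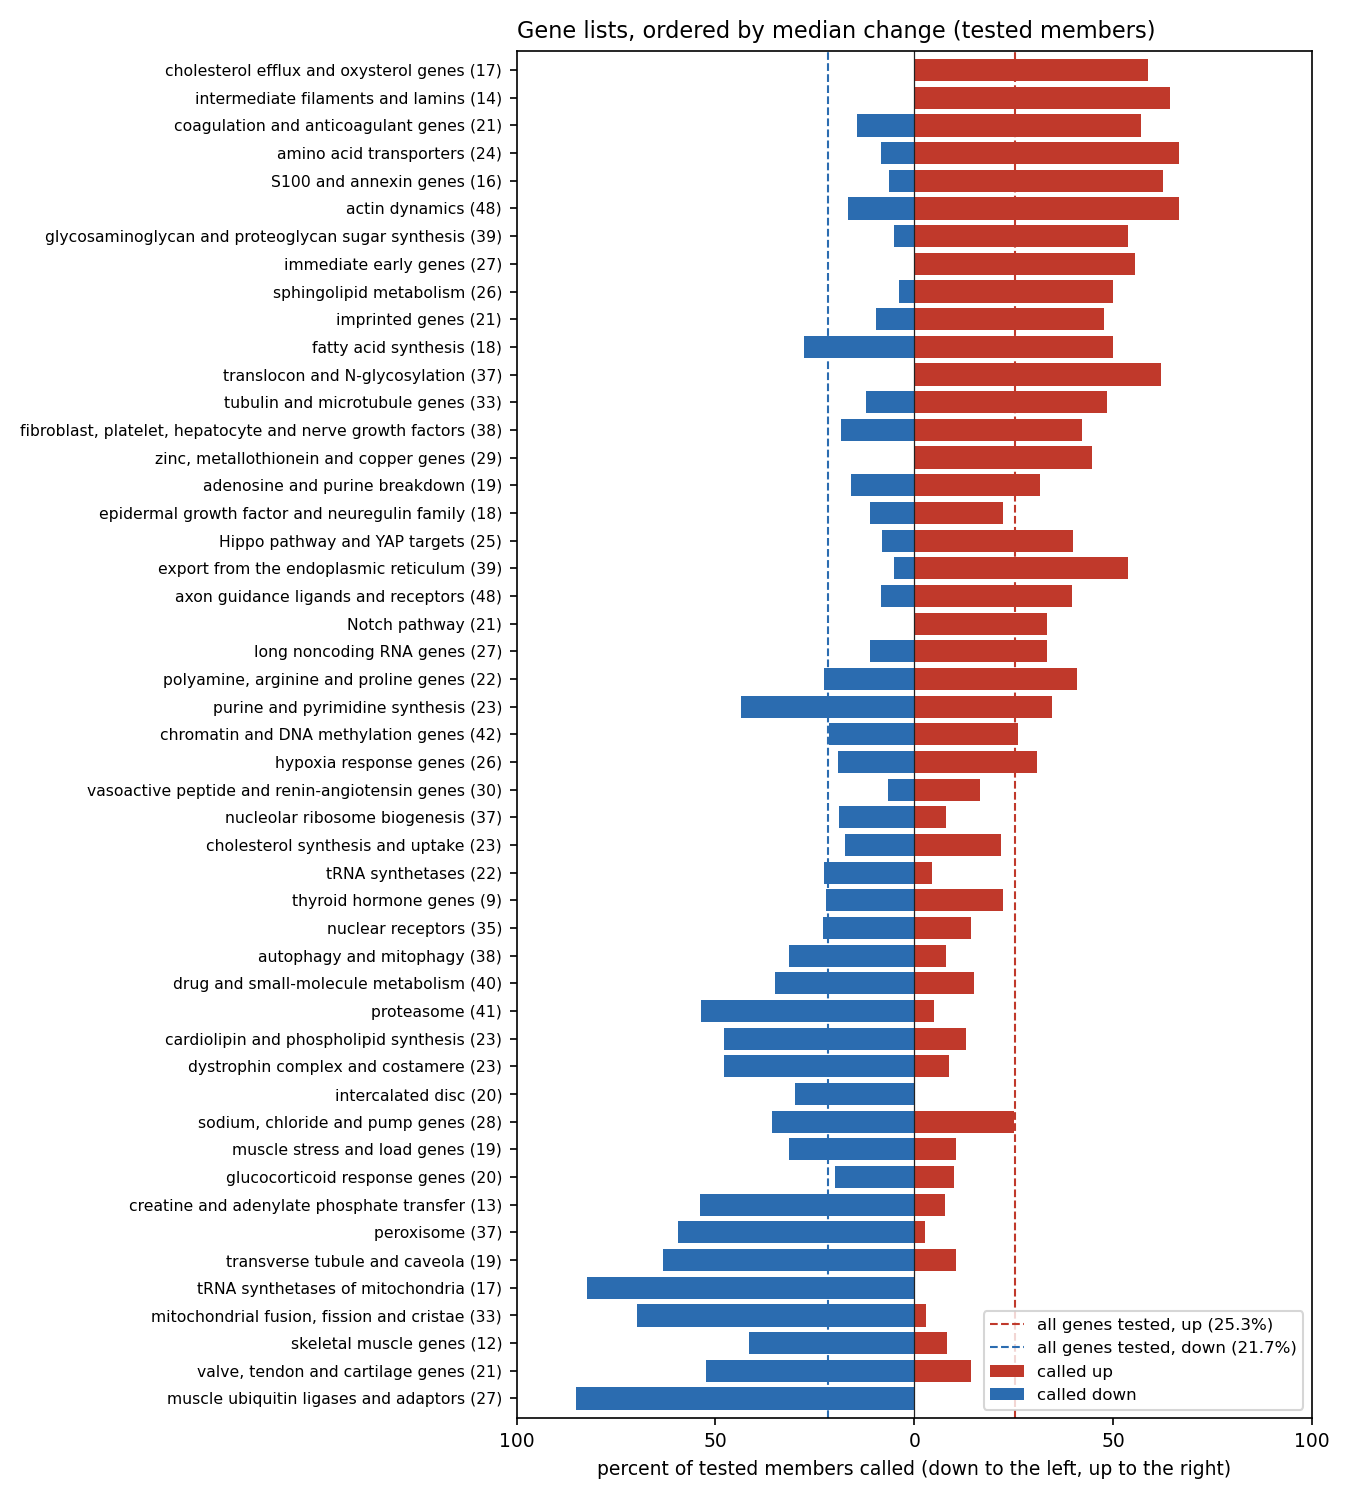
Percent of the tested members of each list, marker and sex-chromosome lists left out, called up (red, to the right) and down (blue, to the left), ordered by the median change, with dashed lines for all genes tested (25.3% up, 21.7% down). The list of muscle ubiquitin ligases is at the bottom with 23 of 27 down and none up, and cholesterol efflux is at the top with 10 of 17 up and none down.

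Most protein turnover genes of striated muscle fell. The list holds the E3 ubiquitin ligases and their substrate adaptors that are made mainly in muscle, among them the atrophy ligases Fbxo32 (atrogin-1) and Trim63 (MuRF1) and the Kelch and ankyrin-SOCS adaptors. Of its 27 tested members, 0 rose and 23 fell (median -0.57), and with total-count scaling 10 fell (median -0.27). Without the IR libraries with Xist 19 fell. Trim7, a glycogenin-binding ligase, had 26.5, 32.2 and 38.9 CPM in SHAM and 10.2, 12.0 and 14.9 CPM in IR (log2 fold change -1.41 ± 0.14, adjusted p = 1.91e-06). Klhl33 fell by 1.38 on the log2 scale, Klhl31, a Kelch protein of the sarcomere, by 0.88, and the ankyrin-SOCS gene Asb12 by 0.98. Trim63 (-0.70) and Fbxo32 (-0.64) fell as well, and 4 members did not pass, Klhl38 (-0.41), Asb11 (-0.21), Klhl40 (-0.14) and Fbxo30 (-0.08).

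Promoters of the ligase list are shown because the members moved together and because the MEF2 motif, a site of the muscle transcription factors of that name, lies in several of them. In the 250 bases before the start of transcription, RefSeq sequence of build GRCm38.p6, the motif stood on either strand in 5 of 22 members with a promoter (22.7%) and in 218 of 11753 tested genes (1.86%). Among the other lists it was as frequent in immediate early genes, which rose (4 of 21, 19%), and in muscle stress and load genes (3 of 17, 17.6%). It was found in 34 of 2973 promoters of genes called up (1.14%) and in 75 of 2606 of genes called down (2.88%). The windows below run 5′ to 3′ on the gene's strand with the motif in capitals.

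Asb12, chrX:95478143-95478202, minus strand: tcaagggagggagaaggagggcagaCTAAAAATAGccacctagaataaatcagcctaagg

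Asb14, chr14:26894559-26894613, plus strand: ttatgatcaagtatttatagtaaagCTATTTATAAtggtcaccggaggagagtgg

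Asb18, chr1:90014667-90014702, minus strand: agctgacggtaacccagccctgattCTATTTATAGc

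Kbtbd12, chr6:88627486-88627545, minus strand: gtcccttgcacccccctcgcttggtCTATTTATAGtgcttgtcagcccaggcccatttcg

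Klhl41, chr2:69670032-69670091, plus strand: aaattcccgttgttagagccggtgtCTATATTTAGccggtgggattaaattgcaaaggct

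The motifs begin 48 bases before the start in Asb12, 30 in Asb14, 11 in Asb18, 91 in Kbtbd12 and 63 in Klhl41. These 5 genes fell by 0.98, 0.59, 0.64, 0.56 and 0.32 on the log2 scale, within the range of the other members that fell. Klhl41 was not called without IR replicate 4 (-0.27, adjusted p = 0.0528) or the libraries with Xist (-0.27, adjusted p = 0.0825). With total counts Asb18 (-0.34, adjusted p = 0.0885), Kbtbd12 (-0.26, adjusted p = 0.0925) and Klhl41 (-0.02, adjusted p = 0.866) were not called. A match describes the letters and not a bound site. A further 6 motifs were searched in the same windows on both strands: the AP-1 site TGANTCA was in 4.60% of all promoters, 6.19% of those of genes called up and 3.88% of those called down. The shares were 1.16%, 1.14% and 1.42% for the CArG box, 0.970%, 1.11% and 0.806% for the sterol element TCACNCCAC, 0.630%, 0.706% and 0.614% for the estrogen-related receptor element TNAAGGTCA, 0.442%, 0.538% and 0.499% for the amino acid response element TGATGNAAT, and 0.145%, 0.202% and 0.038% for the ER stress element.

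General protein turnover moved less. Of 41 proteasome genes 22 fell and 2 rose (median -0.21), while with total-count scaling 2 fell and 5 rose (median 0.10). Psme4, the activator PA200, fell most (-0.96), and the regulatory subunit genes Psmd6, Psmd12 and Psmc6 fell by 0.38, 0.38 and 0.42 on the log2 scale. The 2 rises were the immunoproteasome genes Psmb8 (1.04) and Psmb9 (0.80), and for Psmb9 the change was 0.17 (adjusted p = 0.400) once the IR libraries with Xist were left out and 0.32 (adjusted p = 0.110) without IR replicate 4 alone, and it lost its call without SHAM replicate 2, 4 or 5 or IR replicate 3 as well (0.75 to 0.80, adjusted p = 0.0508 to 0.0673). Of 38 autophagy genes 12 fell and 3 rose (median -0.16, or 0.15 with 12 rises and 2 falls on total counts). The list member Fundc2 fell (-0.54), and Tfe3, a regulator of lysosome genes, rose (0.67). The core genes Becn1 (-0.13), Atg5 (-0.03) and Sqstm1 (-0.02) did not pass.

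The membrane systems of the cardiomyocyte also lay lower. Of 19 genes of the transverse tubule and its caveolae 12 fell and 2 rose (median -0.47). Jph1, a junctophilin that holds the tubule against the sarcoplasmic reticulum, had 19.7, 22.4 and 24.5 CPM in SHAM and 11.4, 12.5 and 15.5 CPM in IR (log2 fold change -0.80 ± 0.10, adjusted p = 7.64e-06), and Cav3, the muscle caveolin, fell by 0.62 on the log2 scale. Bin1, a membrane-bending protein of tubules that other cells make too, went the other way and had 7.01, 9.32 and 10.1 CPM in SHAM and 14.1, 18.8 and 20.3 CPM in IR (log2 fold change 1.02 ± 0.13, adjusted p = 9.84e-06). Of 23 genes of the dystrophin complex and costamere 11 fell and 2 rose (median -0.22, 0.09 on total counts with 5 falls and 7 rises). Sarcospan (Sspn, -0.61) and the melusin gene Itgb1bp2 (-0.80) fell and the talin gene Tln1 rose (0.55), while dystrophin itself (Dmd, -0.13) did not pass. At the intercalated disc, which joins one cardiomyocyte to the next, 6 of 20 genes fell (median -0.22, 0.09 on total counts with 1 fall and 5 rises). Tmem65 fell by 0.78 on the log2 scale and the desmosome gene Dsc2 by 0.49, whereas the gap junction gene Gja1 (0.03) and the cadherin gene Cdh2 (0.13) did not pass.

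Ion pumps and channels outside the potassium and calcium families went both ways, with 10 falls and 7 rises among 28 genes (median -0.23, 0.08 on total counts). The pacemaker channel gene Hcn4 had 5.95, 8.84 and 9.64 CPM in SHAM and 2.74, 4.29 and 4.83 CPM in IR (log2 fold change -1.0 ± 0.20, adjusted p = 0.000343), and Hcn2 changed by -0.99. Rises came from Fxyd5 (1.54), a pump modulator of migrating cells, and the stretch-gated channels Piezo1 (0.58) and Piezo2 (2.30). Of the 13 genes of phosphate transfer by creatine and adenylate kinases 7 fell, among them the mitochondrial creatine kinase Ckmt2 (-1.16) and the adenylate kinases Ak3 (-0.69) and Ak4 (-0.57), and Gatm, the first enzyme of creatine synthesis, rose (1.18).

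Where muscle and other cells use separate genes for the same or a related protein, the balance mostly moved from the muscle form toward the other. Of 40 pairs, 38 had both genes tested. The pairs were chosen with earlier results of these data known, so their counts are a description. Among all genes tested 25.3% rose, 21.7% fell and 26.9% had no overlap between the groups. The form named first below, in most pairs the muscle or adult one, fell in 31 pairs and rose in 1 (median -0.63). The second form rose in 23 and fell in 4 (median 0.58). The 1 rise of a first form was that of Tmsb4x (0.76), which like Tubb4b is not specific to muscle. In 16 pairs the first form fell and the second rose. The log2 ratio of first to second form was lower in IR in 37 of 38 pairs, and the groups did not overlap in 30 of these, and in 31 with FPKM. A ratio within a library depends on its scaling only through the 0.1 added to each value. For Tnni3 to Tnni1, where Tnni1 is near that value, the groups overlapped on CPM and not on FPKM.

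Length-scaled values (FPKM) let the 2 forms be set side by side. They are not centred as the TMM values are: with limma on log2(FPKM + 1) the median gene lay at 0.17. Falls therefore look smaller and rises larger on FPKM. On that scale the falls of Actn2 (-0.14, adjusted p = 0.311) and Eef1a2 (-0.29, adjusted p = 0.111) were not called. The muscle enolase Eno3 went from 229 to 114 FPKM and the general form Eno1 from 66.3 to 133 FPKM. Pgam2, the muscle phosphoglycerate mutase, went from 399.6 to 239 FPKM and Pgam1 from 15.6 to 29.4 FPKM. The glycogen phosphorylases Pygm and Pygl went from 272 to 201 and from 1.46 to 5.91 FPKM. For the elongation factor of translation, Eef1a2 of muscle and neurons went from 117 to 96.5 FPKM and the ubiquitous Eef1a1 from 516 to 1380.2 FPKM. The insulin-responsive glucose carrier Slc2a4 went from 105 to 82.3 FPKM and the basal carrier Slc2a1 from 4.84 to 11 FPKM. All 5 of these log2 ratios were without overlap between the groups, for example Eno3 to Eno1 on CPM at 3.05 to 3.31 in SHAM and 0.75 to 1.65 in IR.

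Structural pairs moved likewise, with Actn2 and Actn1 of alpha-actinin from 414 to 377 and from 5.45 to 18.4 FPKM, Csrp3 and Csrp2 of the LIM proteins from 1356 to 1054 and from 16.1 to 58.6 FPKM, and desmin (Des) and vimentin (Vim) from 441 to 546 and from 145 to 458 FPKM. Desmin did not pass the test (-0.00), so that pair moved through vimentin (1.35). The pair of lactate dehydrogenases moved through Ldhb alone (-0.80), which heart muscle uses to oxidise lactate, and Ldha (0.02) did not pass. Creatine kinase was a further such case, with Ckm at -1.22 and Ckb (0.04) not passing. The exception was sarcomeric actin, where Acta1 fell more (-2.04) than Actc1 (-0.81) and the ratio was 1.29 higher on the log2 scale, with overlapping groups. Cpt1b was listed at 11 to 38 counts per library and S100a6 at 0 to 4, although heart muscle is known to express both. The sources used here do not say how overlapping genes were counted, and these pairs are uncertain.

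**Figure D4:**
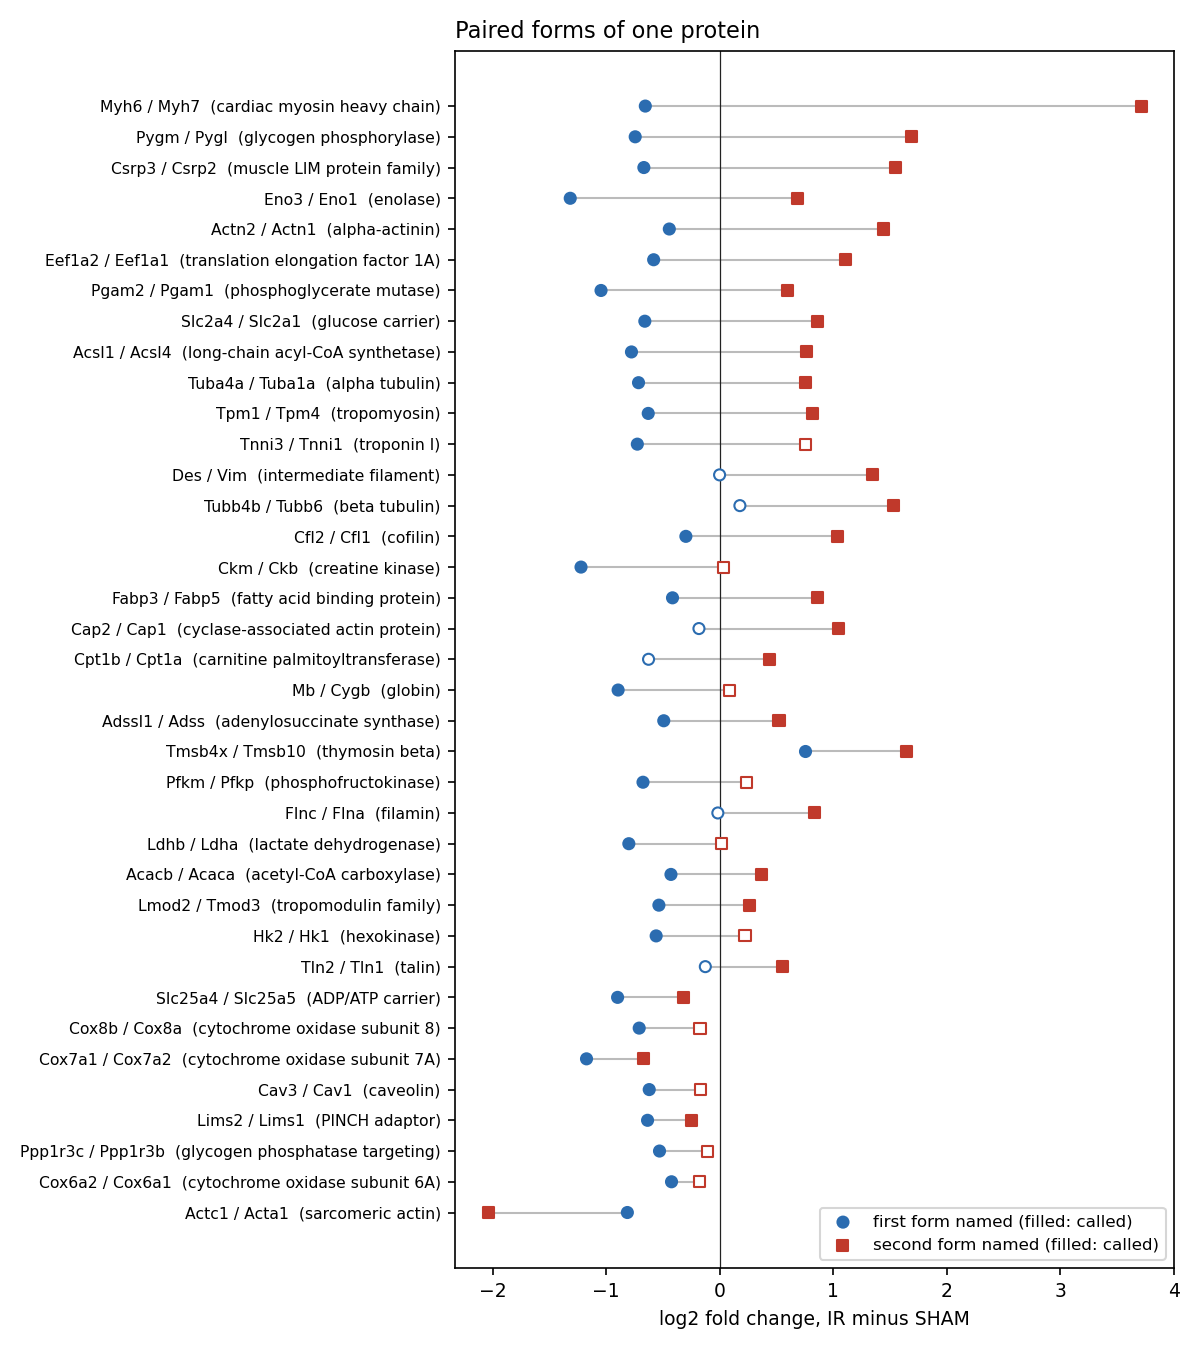
Log2 fold change of both genes of 37 pairs, ordered by the change of their ratio. Circles stand for the first-named form, in most pairs the muscle or adult one, and squares for the second, filled where called. The circle lies left of the square in all pairs but that of Actc1 and Acta1.

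Cytoskeleton genes of non-muscle cells rose. Of 48 genes of actin assembly 32 rose and 8 fell (median 0.57). Cfl1, the non-muscle cofilin that severs filaments, had 119, 131 and 147 CPM in SHAM and 219, 263 and 356 CPM in IR (log2 fold change 1.04 ± 0.14, adjusted p = 1.09e-05). Arpc1b of the branching complex rose by 1.29, the capping protein gene Capg by 1.98 and Cap1, which recycles actin monomers, by 1.05. The 8 that fell included genes of sarcomeric actin such as the leiomodin genes Lmod2 (-0.54) and Lmod3 (-0.89) and the tropomodulin gene Tmod1 (-0.55), with gelsolin (Gsn, -0.66). Of 33 tubulin and microtubule genes 16 rose and 4 fell (median 0.31). Tubb5 went from 99.4 ± 9.05 to 206 ± 35 CPM (log2 fold change 1.05 ± 0.13, adjusted p = 6.79e-06), and Tubb6 and Tubb2b rose by 1.53 and 2.39, while Tuba4a fell (-0.71). Vash2, whose product removes the terminal tyrosine of alpha-tubulin, rose by 2.39. Its level was low, 0.0651 to 0.404 CPM in SHAM and 0.339 to 1.83 CPM in IR, with overlapping groups.

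Intermediate filament genes rose in 9 of 14 cases with no fall, among them vimentin, Lmna (0.54) and Lmnb1 (1.69) of the nuclear lamina. Of 16 genes of S100 proteins and annexins, which bind calcium and membranes, 10 rose and 1 fell. S100a4, a marker of motile fibroblasts and leukocytes, had 3.78, 4.33 and 8.12 CPM in SHAM and 18.5, 26.5 and 40.0 CPM in IR (log2 fold change 2.43 ± 0.27, adjusted p = 6.49e-06), and Anxa2 and Anxa1 rose by 1.54 and 1.51. The 1 fall was S100a1 (-0.67), the S100 protein of cardiomyocytes. These rises ran with the fibroblast and macrophage marker sums given above, and the part of those cells was not tested.

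The machinery that makes secreted proteins rose at several steps. At the translocon and the N-glycosylation enzymes of the endoplasmic reticulum 23 of 37 genes rose and none fell (median 0.33). Sec61a1, the pore itself, had 38.3, 40.1 and 43.4 CPM in SHAM and 68.2, 78.6 and 98.3 CPM in IR (log2 fold change 0.98 ± 0.13, adjusted p = 1.07e-05), and Sec61b rose by 1.14. The oligosaccharyltransferase genes Ddost and Rpn2 rose by 0.57 and 0.64. For export from the endoplasmic reticulum to the Golgi apparatus 21 of 39 rose and 2 fell (median 0.20). Creb3l1, a transcription factor of collagen-secreting cells, had 1.97, 3.09 and 4.17 CPM in SHAM and 13.8, 16.9 and 18.5 CPM in IR (log2 fold change 2.38 ± 0.34, adjusted p = 3.52e-05), and Kdelr3 and Tmed3, a retrieval receptor and a cargo receptor, rose by 1.79 and 1.08. Sar1b, a coat GTPase of large cargo, was the larger of the 2 falls (-0.64).

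Of 39 genes for the sugar chains of proteoglycans 21 rose and 2 fell (median 0.46). Chst11, a sulfotransferase of chondroitin chains, had 3.25, 4.49 and 5.93 CPM in SHAM and 12.4, 14.8 and 21.8 CPM in IR (log2 fold change 1.76 ± 0.24, adjusted p = 1.71e-05). Dse, which turns chondroitin into dermatan sulfate, rose by 1.47, the chondroitin polymerase gene Chpf by 1.0 and the heparan sulfatase gene Sulf2 by 0.91. Ugp2, which makes UDP-glucose for glycogen and for these chains, fell (-1.08). Among symbols that share the stem Galnt, enzymes that start O-linked chains on mucins and other proteins, 9 of 13 rose and 0 fell (median 0.55). That family was picked out after the values were seen.

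Cholesterol genes rose on the export side and less so on the synthesis side. Of 17 efflux and oxysterol genes 10 rose and 0 fell (median 1.04). Apoe, the apolipoprotein that carries cholesterol from macrophages, had 253, 302 and 341 CPM in SHAM and 761, 865 and 1170.5 CPM in IR (log2 fold change 1.61 ± 0.22, adjusted p = 1.40e-05). Ch25h, which makes 25-hydroxycholesterol, rose by 2.78, the lysosomal carrier Npc2 by 1.19 and the phospholipid transfer gene Pltp by 1.20. Of 23 synthesis and uptake genes 5 rose and 4 fell (median -0.01), and with total counts 12 rose and 1 fell (median 0.30). The synthesis regulator gene Srebf2 rose by 0.49 and the squalene epoxidase Sqle by 1.43, and Hsd17b7 and Fdft1 fell by 0.86 and 0.59.

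Of 26 sphingolipid genes 13 rose and 1 fell (median 0.38). Asah1, a lysosomal enzyme that releases sphingosine, rose by 0.77, the lyase gene Sgpl1 by 1.08 and the receptor gene S1pr2 by 1.66. In fatty acid synthesis 9 of 18 rose and 5 fell. The elongase gene Elovl1 (0.79), the desaturase gene Fads1 (0.44) and the ATP-citrate lyase gene Acly (0.40) rose, and Acss2 (-0.55) fell. Of 23 genes for cardiolipin and other phospholipids 11 fell and 3 rose (median -0.22, 0.09 on total counts). The cardiolipin synthase gene Crls1 fell by 0.49 on the log2 scale, and Gpam, which starts glycerolipid synthesis in mitochondria, by 0.67.

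Amino acid carriers rose in 16 of 24 genes and fell in 2 (median 0.65). Slc7a5, the carrier of large neutral amino acids, had 3.38, 4.45 and 4.75 CPM in SHAM and 7.23, 9.09 and 10.9 CPM in IR (log2 fold change 1.07 ± 0.16, adjusted p = 2.13e-05), and its partner chain Slc3a2 rose by 0.66. The glutamate carrier Slc1a3 rose by 1.77 and the histidine and peptide carrier Slc15a3 by 2.35. The 2 falls were Slc38a4 (-0.66) and Slc38a3 (-0.52), carriers of neutral amino acids and glutamine, and the call of Slc38a3 was lost (-0.47, adjusted p = 0.0508) once the IR libraries with Xist were left out. The cystine carrier Slc7a11 had the largest fold of the list (4.13, and 5.75 without SHAM replicate 5), but its level was low, 0.300, 2.19, 0.406, 1.49, 0.160 and 1.43 CPM in IR and up to 0.228 CPM in SHAM, with overlapping groups.

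In the genes of proline, arginine and polyamines 9 of 22 rose and 5 fell. Aldh18a1 and Pycr1, the enzymes that turn glutamate into proline, rose: Aldh18a1 had 5.83, 8.61 and 9.81 CPM in SHAM and 14.2, 17 and 19.5 CPM in IR (log2 fold change 1.03 ± 0.15, adjusted p = 1.90e-05) and Pycr1 had 0.389, 0.779 and 1.04 CPM in SHAM and 3.03, 4.22 and 5.48 CPM in IR (log2 fold change 2.51 ± 0.42, adjusted p = 9.13e-05). Prodh, which breaks proline down, fell (-0.80, adjusted p = 0.000302). Proline is a main residue of collagen, and Col1a1 and Col3a1 rose in the same libraries by 4.31 and 4.08. The arginine-making pair Ass1 and Asl rose by 1.39 and 0.81, while Odc1, which starts polyamine synthesis, did not pass (0.17). In purine and pyrimidine synthesis 8 of 23 rose and 10 fell (with total counts 13 and 2). The folate enzyme Mthfd2 (1.5) and the salvage enzyme Aprt (0.97) rose, and Dhodh, the pyrimidine enzyme of the mitochondrial membrane, fell (-0.76).

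Organelle genes of oxidative cells fell. Of 33 genes of mitochondrial fusion, fission and cristae 23 fell and 1 rose (median -0.49; 16 falls with total counts). Opa1, the GTPase of inner membrane fusion, had 231, 248 and 285 CPM in SHAM and 122, 155 and 175 CPM in IR (log2 fold change -0.72 ± 0.10, adjusted p = 1.09e-05), and Apool, Mtfr1 and Letm1 fell by 0.78, 0.52 and 0.85 on the log2 scale. Of 37 peroxisome genes 22 fell and 1 rose (median -0.35; 7 falls and 5 rises with total counts). Ehhadh of peroxisomal beta-oxidation fell by 0.97 on the log2 scale, the phytanic acid enzyme Phyh by 0.74 and the import receptor gene Pex19 by 0.64, while catalase (Cat, -0.13) did not pass.

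The aminoacyl-tRNA synthetases separated by compartment. Of 17 mitochondrial ones 14 fell and 0 rose (median -0.48; 6 falls with total counts), led by Yars2, which had 22.5, 25.9 and 26.9 CPM in SHAM and 12.3, 13.2 and 16.6 CPM in IR (log2 fold change -0.86 ± 0.11, adjusted p = 7.61e-06). Of 22 cytosolic ones 5 fell and 1 rose (median -0.07, 0.24 on total counts with 14 rises), and none of these exceeded 0.30 in size. Ribosome biogenesis in the nucleolus stayed near the centre of all genes, with 3 rises and 7 falls of 37 (median 0.01), 27% called. These falls ran with the lower sum of cardiomyocyte markers and the lower mitochondrial share of counts, and the part of either in them was not tested.

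Metal carriers rose without a fall, in 13 of 29 genes of zinc, metallothionein and copper (median 0.30). Slc39a8, a carrier of zinc, manganese and iron into cells, had 0.583, 0.829 and 0.977 CPM in SHAM and 2.01, 2.40 and 8.52 CPM in IR (log2 fold change 2.24 ± 0.40, adjusted p = 0.000144). Steap2, a metalloreductase that reduces iron and copper for uptake, rose by 3.15, and Slc39a1 and Slc39a13, zinc carriers of the surface and of the secretory pathway, by 0.54 and 0.58. The copper carrier genes Slc31a1 (-0.02) and Slc31a2 (-0.03) did not pass.

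Growth and guidance signals rose more often than they fell. Of 38 growth factor and receptor genes 16 rose and 7 fell (median 0.31). Among ligands, hepatocyte growth factor (Hgf) had 0.700, 0.987 and 1.28 CPM in SHAM and 4.25, 6.77 and 7.34 CPM in IR (log2 fold change 2.73 ± 0.32, adjusted p = 5.30e-06), Vegfd, which acts on lymphatic vessels, rose by 1.69, and Fgf1, which cardiomyocytes make, fell by 0.55 on the log2 scale. Among receptors Fgfr1 rose by 0.70 and Met, the receptor of Hgf, by 1.01. In the epidermal growth factor family 4 of 18 rose and 2 fell, a share below that of all genes. The receptor Egfr had 4.72, 5.94 and 10.3 CPM in SHAM and 16, 19.1 and 25 CPM in IR (log2 fold change 1.63 ± 0.26, adjusted p = 8.08e-05), and among the neuregulin receptor genes Erbb3 fell (-0.66) while Erbb4 (-0.15) and Erbb2 (0.28) did not pass.

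Of 48 axon guidance genes, which also steer vessels and leukocytes, 19 rose and 4 fell (median 0.15). Slit3 rose by 1.47, its receptor gene Robo1 by 1.01, and the ephrin receptor gene Ephb2 had 0.241, 0.451 and 0.565 CPM in SHAM and 2.11, 2.43 and 3.39 CPM in IR (log2 fold change 2.66 ± 0.34, adjusted p = 7.64e-06). The semaphorin receptor genes Plxnc1 and Plxnb2 rose by 1.56 and 0.61. In the Notch pathway 7 of 21 rose and none fell. Notch2 had 17.7, 19.4 and 23.1 CPM in SHAM and 33.5, 38.2 and 49.2 CPM in IR (log2 fold change 1.0 ± 0.12, adjusted p = 5.35e-06) and the Fringe gene Lfng rose by 1.01, while Notch1 (0.14), Notch3 (0.14) and Notch4 (-0.13) did not pass.

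Transcription factors of the immediate early class rose in 15 of 27 cases with no fall (median 0.39). Myc had 1.67, 2.34 and 3.88 CPM in SHAM and 6.06, 9.33 and 17.3 CPM in IR (log2 fold change 2.06 ± 0.31, adjusted p = 4.28e-05), Junb rose by 1.60 and Fosl1 by 3.58 (4.38 without SHAM replicate 4), and Egr1 (0.70) and Klf4 (-0.01) did not pass. Fosl1 was low, at 0 to 0.207 CPM in SHAM and 0.555 to 1.37 CPM in IR. Of 35 nuclear receptor genes 5 rose and 8 fell (median -0.12, 0.19 on total counts). The retinoic acid receptor gene Rara rose by 1.03, and Rxrg, Esrrg and the mineralocorticoid receptor gene Nr3c2 fell by 0.73, 0.54 and 0.63 on the log2 scale. In the vasoactive list 5 of 30 rose and 2 fell, a lower share than among all genes. The bradykinin receptor gene Bdkrb2 (2.24) and endothelin 1 (Edn1, 0.91) rose, and Ace (0.06), Agtr1a (-0.31) and Agt (0.23) did not pass. Bdkrb2 was low, at 0.0389 to 0.365 CPM in SHAM and 0.479 to 1.65 CPM in IR.

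Response genes with a known trigger were mixed. Of 26 hypoxia response genes 8 rose and 5 fell (median 0.05). The carrier Slc2a1 (0.86) rose, and Higd1a, which acts at the respiratory chain, fell from 149 ± 12.2 to 75.6 ± 12.4 CPM (log2 fold change -0.98 ± 0.12, adjusted p = 7.56e-06). Of 20 glucocorticoid response genes 2 rose and 4 fell (median -0.25, 0.05 on total counts), with Lcn2, a lipocalin of inflamed tissue, at 3.81 ± 0.77, and the Krüppel-like genes Klf9 and Klf15 at -0.64 ± 0.10 and -0.57 ± 0.14. The groups overlapped in Lcn2, with 4.38 CPM in IR replicate 3, 49.7 to 86.3 CPM in the other IR libraries and 1.28 to 8.43 CPM in SHAM. In the Hippo pathway and its YAP targets 10 of 25 rose and 2 fell, and Vgll3, a cofactor of TEAD factors, and the receptor gene Axl rose by 1.45 ± 0.27 and 0.47 ± 0.09. Thyroid hormone genes (2 up and 2 down of 9, median -0.08, 0.22 on total counts) included the receptor gene Thrb at -0.49 ± 0.11.

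In adenosine and purine breakdown 6 of 19 genes rose and 3 fell. Adk, which returns adenosine to AMP, had 187, 198 and 226 CPM in SHAM and 104, 121 and 147 CPM in IR (log2 fold change -0.70 ± 0.10, adjusted p = 1.39e-05), while the receptor gene Adora2b rose by 2.30 and the phosphorylase genes Pnp and Upp1 by 1.06 and 0.87. Of 40 genes of drug and small-molecule metabolism 14 fell and 6 rose (median -0.18, 0.13 on total counts), with Akr1b8, an aldo-keto reductase, at 2.18 ± 0.23 and Aldh6a1, of valine breakdown, at -0.71 ± 0.11. Among muscle stress and load genes 2 of 19 rose and 6 fell (median -0.24, 0.07 on total counts). Myoz2, which binds calcineurin at the Z disc, changed by -0.98 ± 0.13 and the chaperone gene Hspb8 by -0.72 ± 0.12. In skeletal muscle genes 5 of 12 fell and 1 rose, Tnnt3 (2.39, with at most 0.622 CPM in SHAM and 3.07 CPM in IR). Tnnt1, the troponin T of slow fibres, had 9.71, 13.1 and 13.9 CPM in SHAM and 4.30, 6.24 and 7.28 CPM in IR (log2 fold change -1.07 ± 0.17, adjusted p = 3.97e-05), with no overlap.

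Imprinted genes rose in 10 of 21 cases and fell in 2 (median 0.35). H19, a noncoding RNA of the growing fetus that falls silent after birth, had 9.60, 13.6 and 18.7 CPM in SHAM and 37.0, 64.4 and 103 CPM in IR (log2 fold change 2.32 ± 0.35, adjusted p = 6.40e-05). Its neighbour Igf2 did not pass (0.06). Dio3, which inactivates thyroid hormone, rose by 3.79, and Cdkn1c, a growth inhibitor, fell by 1.08 on the log2 scale. Dio3 was low, at 0 to 0.0777 CPM in SHAM and 0.278 to 0.685 CPM in IR. Of 27 long noncoding RNA genes 9 rose and 3 fell, among them Gas5 (0.53) and Snhg14 (-1.02), with Malat1 (-0.07) and Neat1 (0.09) not passing. Chromatin genes were mixed (11 up and 9 down of 42). Uhrf1 and Dnmt1, which copy DNA methylation at replication, rose by 2.07 and 0.68, and Smyd1, a histone methyltransferase of striated muscle, fell by 0.70 on the log2 scale.

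Of 14 endothelial markers 1 rose and 6 fell (median -0.19, 0.11 on total counts with 2 rises and 2 falls). Of 12 pericyte and smooth muscle markers 6 fell and 0 rose (median -0.25, 0.06 on total counts with 3 rises and 1 fall). Markers of epicardium and mesothelium, the cell layer that covers the heart, summed to 11.9 to 16.9 CPM in SHAM and 35.8 to 88.2 CPM in IR, and 11 of 12 tested rose (median 3.63). Aldh1a2, which makes retinoic acid in the epicardium, had 3.82, 5.53 and 7.13 CPM in SHAM and 21.8, 31.3 and 42.5 CPM in IR (log2 fold change 2.51 ± 0.30, adjusted p = 7.87e-06), and Krt8, a keratin of simple epithelium, rose by 3.38. Krt8 was low, at 0.0344 to 0.202 CPM in SHAM and 0.301 to 3.05 CPM in IR. Aldh1a2 was a large part of the summed level, 42.5 of 55.7 CPM in IR replicate 6. The mean log2(CPM + 1) of the list lay 1.98 above the SHAM mean in IR replicate 2, 1.54 in replicate 4 and 0.50 to 0.89 in the other 4. Without replicate 2 the mesothelin gene Msln was at 5.08 in place of 5.70 and Krt19 at 4.19 in place of 4.93. The epicardial transcription factor gene Wt1 did not pass (0.26).

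In atrial genes 1 library stood apart. As a list 3 of 14 rose and 1 fell, and their mean level in IR replicate 2 was 1.46 above the SHAM mean, while the other IR libraries lay at -0.82 to -0.07. Sarcolipin (Sln), which regulates the calcium pump of atrial muscle, had 93.9 CPM in IR replicate 2, 1.56, 0.174, 1.80, 5.58 and 3.26 CPM in the other IR libraries and 3.81 to 13.7 CPM in SHAM. The atrial light chain gene Myl7 had 215 CPM there and 8.93, 2.00, 7.14, 25.4 and 8.03 CPM in the others. This is also the IR library with the most Clec3a and Chad. Of 9 ventricular genes 4 fell, among them Myl2 (-0.91) and Myl3 (-1.15).

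Valve, tendon and cartilage genes fell in 11 of 21 cases and rose in 3. The rises were Sox9 (1.74), a factor of cartilage and valve formation, and Cnmd (1.33) and Scx (0.52), each of which lost its call without 1 of several libraries (lowest changes 1.09 without IR replicate 5 and 0.39 without IR replicate 1, adjusted p = 0.0594 and 0.146). Scx was also not called without both libraries with Xist (0.57, adjusted p = 0.0655). Lymphatic markers rose in 5 of 7 cases, with podoplanin (Pdpn) at 4.98, 6.04 and 7.08 CPM in SHAM and 17.4, 22.7 and 34.1 CPM in IR (log2 fold change 2.01 ± 0.28, adjusted p = 2.11e-05) and the attractant Ccl21a at 1.05, while Prox1 fell (-0.43) and was not called without SHAM replicate 2, 4 or 5 or IR replicate 6 (-0.34 to -0.41, adjusted p = 0.0518 to 0.0613), once both IR libraries holding Xist were left out (-0.44, adjusted p = 0.0683), with limma voom (-0.38, adjusted p = 0.0529) or with total counts (-0.12, adjusted p = 0.539). The Schwann cell list rose in 5 and fell in 1 of 15: the myelin gene Mbp rose by 1.70, and Sox10 (0.10) did not pass. Neuronal and sympathetic genes rose in 3 and fell in 1 of 7 cases (median 0.33). The growth cone gene Gap43 rose (3.25), at low levels of 0 to 0.155 CPM in SHAM and 0.180 to 1.39 CPM in IR. The tubulin gene Tubb3 lay at 1.51 to 2.50 CPM in SHAM and 4.32 to 15.6 CPM in IR. Ddc, an enzyme of catecholamine synthesis, had 2.34, 3.33 and 5.34 CPM in SHAM and 0.372, 0.537 and 0.833 CPM in IR (log2 fold change -2.53 ± 0.26, adjusted p = 3.30e-06). Dbh, which makes noradrenaline, did not pass (-0.76), and was called without IR replicate 3 (-1.01, adjusted p = 0.0369) and without both libraries with Xist (-1.11, adjusted p = 0.0438).

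Markers of red cells and platelets rose in 7 of 10 cases, among them the platelet chemokine gene Pf4 (1.62). Genes of blood clotting rose in 12 of 21 cases and fell in 3. The factor genes F10, F7 and F5, usually made by the liver, had changes of 4.89, 4.35 (5.04 without SHAM replicate 4) and 3.41: F10 had 0.0389, 0.101 and 0.242 CPM in SHAM and 1.33, 1.74 and 7.65 CPM in IR and F5 had 0.0404, 0.159 and 0.195 CPM in SHAM and 0.685, 1.01 and 3.15 CPM in IR. Protein S (Pros1), an anticoagulant, rose by 0.67. Tissue factor (F3), which starts clotting, fell (-0.39) and was not called without the libraries with Xist (-0.37, adjusted p = 0.0537). Of 5 tested adipocyte markers 2 fell, Cidec (-2.21) and Car3 (-1.29), and neither was called without the libraries with Xist (-1.86 and -1.21, adjusted p = 0.0581 and 0.0665).

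**Figure D5:**
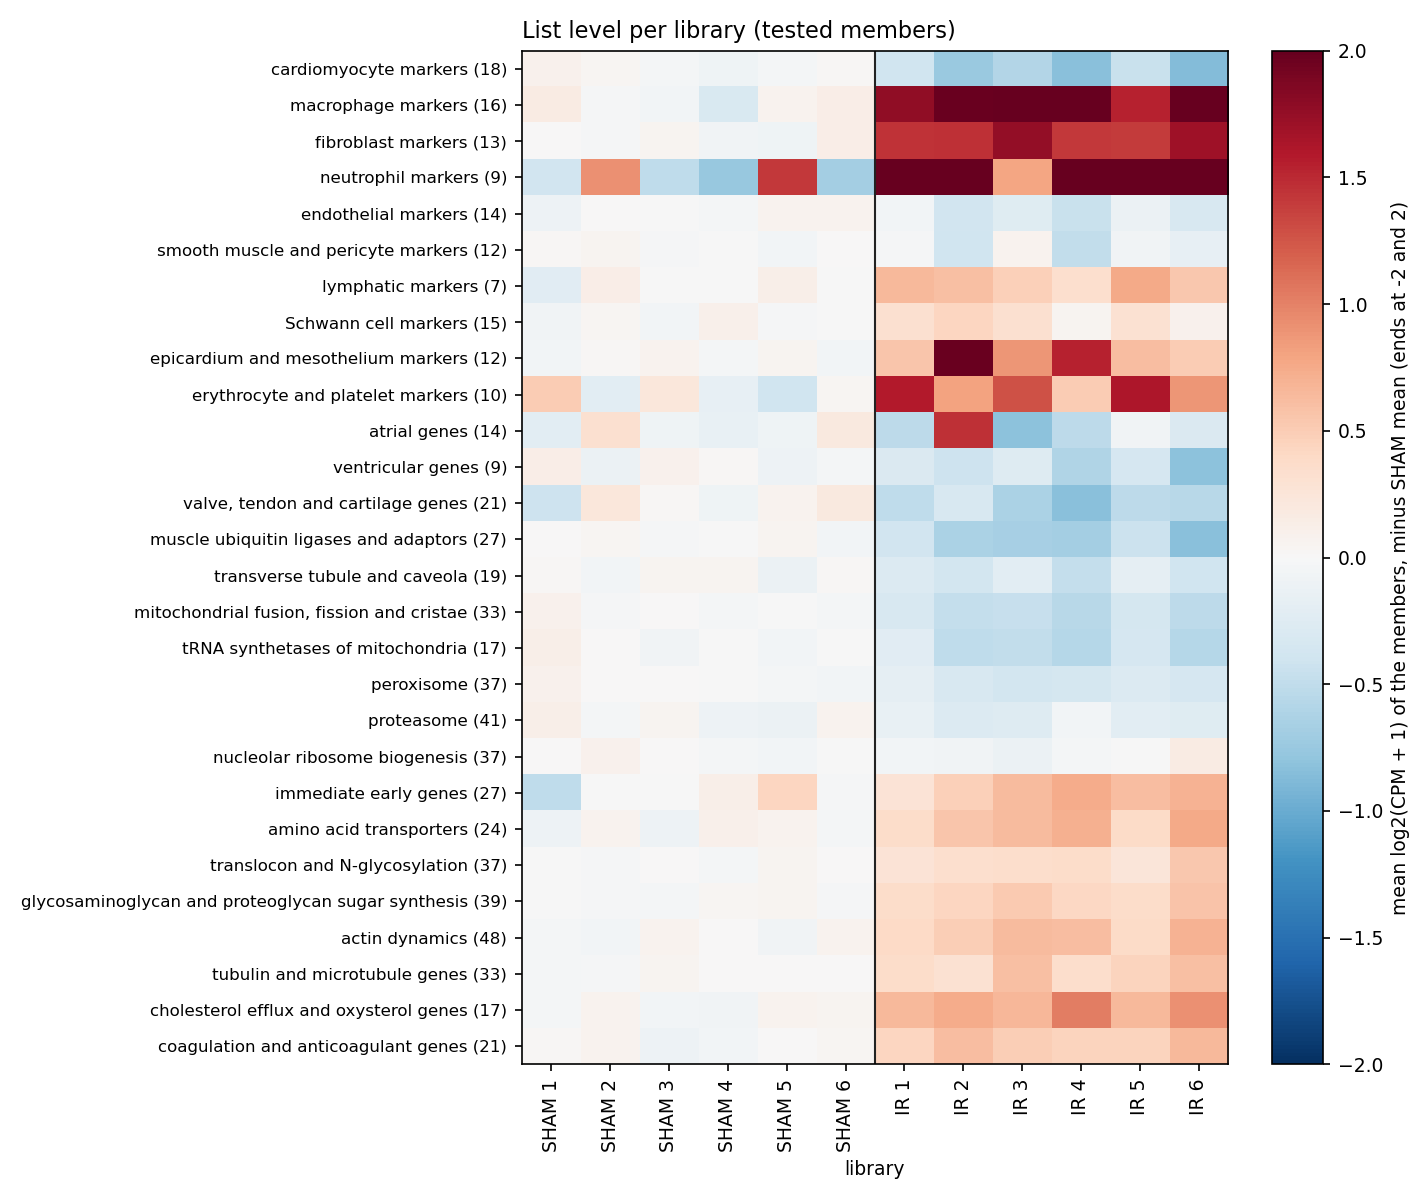
Mean log2(CPM + 1) of the tested members of 28 lists (rows) in the 12 libraries (columns), minus the mean over SHAM, with colours from -2 to 2. The IR columns share one pattern for most lists, and the rows of atrial genes, epicardium, neutrophils and red cells and platelets differ between IR hearts, with IR 2 alone red for atrial genes.

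Families of genes that share a symbol stem show where calls were few. Among 355 Zfp genes, mostly zinc finger transcription factors, 35 rose and 58 fell (26.2% called, against 46.9% of all genes), and among 16 Ints genes of the Integrator complex 0 rose and 2 fell (12.5%). Of 22 Taf genes of the basal transcription machinery 0 rose and 4 fell (18.2%), and of 34 Ddx helicase genes 5 rose and 3 fell (23.5%). Families with many calls in 1 direction included Nudt hydrolases (0 up and 11 down of 22), Pex peroxins (0 and 11 of 17), Naa acetyltransferases (0 and 7 of 12) and Ube ubiquitin-conjugating enzymes (6 and 17 of 39). On the other side stood Kif motors (19 up and 6 down of 34), Ptpn phosphatases (9 and 3 of 15), Arhgap proteins that switch off small GTPases (15 and 5 of 32) and Fkbp immunophilins (7 and 2 of 12), although Fkbp4 was among the 2 falls. These stems were read off after the values were seen.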

How the data were processed

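RNA-seq libraries of heart RNA from 18 mice, 6 a group, were deposited as a table of gene counts and another of FPKM. Per the submitters' processing notes, reads passed fastp, HISAT2 and HTSeq with build GRCm39. The authors' counts are whole numbers of reads per gene symbol, not normalized, and the deposited FPKM are scaled by gene length and depth. For tool versions, strand and reads with several matches, the setting is not given in the sources used here.

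Here edgeR 4.0.16 (R 4.3.3) was run on the deposited counts of all 18 libraries: filterByExpr by group, TMM factors, quasi-likelihood F-test with robust fit, contrast IR minus SHAM, Benjamini-Hochberg adjustment over 15088 genes, threshold 0.05. CPM use the TMM library sizes. The test was tried on simulated counts first. Depth of 27.5 to 34.5 M counts leaves genes under 1 CPM with few counts, and p-values measure the spread between animals. Lists were described by counts and medians, without a set test. The members, lists and pairs were chosen with earlier results of these data known.

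Genes were named by rule: outside symbols of scar matrix and immune families, the 12 largest called rises (IR mean 10 CPM or more) and the 12 largest called falls (SHAM mean 5 CPM or more), the 8 largest called changes each way at 200 CPM or more, the 8 smallest p, and up to 4 called members per list by adjusted p. Further names were chosen after their values were seen, and a few genes that the rule names are not reported here. Promoters are RefSeq sequence of GRCm38.p6 matched by symbol, with 11753 of 15088 tested genes (77.9%) matched, and no coordinates of both builds were mixed. Alternatives used DESeq2 1.42.0, limma 3.58.1, other scalings and filters, FPKM and left-out libraries.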

Additional observations from a re-analysis of the deposited data

Results flagged for a closer look

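In 92 groups of 6 libraries examined, 8 had 1 library far from the others, and chance flags about 1 in 20 groups. Esr1 reached 3895 CPM in IR replicate 3, Sprr1a 79.3 CPM in IR replicate 6, and Col1a1 2800 CPM in IR replicate 3. Slc16a3 was highest in SHAM replicate 5 at 2.70 CPM. Clec3a (3.76 CPM) and Chad (4.91 CPM) stood apart in IR replicate 2, the library with the high atrial genes. ATP8 was outlying in SHAM replicate 1 at 329.5 CPM and in IR replicate 6 at 37.0 CPM.

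Signals also appeared in the group with decursin, which enters the fit's spread and filter but not the contrast. Its replicate 2 held 281790 counts of Esr1 and 14219 of Xist, where SHAM libraries had at most 3 of Xist. Its replicate 6 held 2332306 counts of the noncoding gene Gm26917, or 7.54% of that library. Within the contrast, IR replicate 1 held 308832 counts of Gm26917 (0.915%), and the other SHAM and IR libraries held 16030 to 38960. Without IR replicate 1 3581 genes rose and 3549 fell. The causes of these values were not tested.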

How the results depend on the processing

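Scaling moved the balance of calls most. With total counts alone 7012 genes rose and 1056 fell, 107 of them at least 2-fold. With limma on log2(FPKM + 1) 6901 rose and 1089 fell (923 and 19 at least 2-fold), on log2(FPKM + 0.1) 6940 rose and 1092 fell (82 falls at least 2-fold), and at a mean FPKM of at least 1 978 fell (880 rises and 18 falls at least 2-fold). The other scalings, tests and filters kept the counts of calls within 1.5 times. Leaving out each library in turn gave 3574 to 3794 rises and 3022 to 3549 falls, of which 1683 to 1817 and 244 to 325 were at least 2-fold, and a mitochondrial share lower by 5.86 to 7.51 percentage points. Of genes without a call in the report, some passed with a rise: Atg5 at 0.28 with total counts and 0.25 to 0.28 with FPKM, Slc31a1 at 0.29 with total counts and 0.26 to 0.28 with FPKM, Sqstm1 at 0.30 with total counts and Becn1 at 0.17 on log2(FPKM + 0.1). These went against their sign under TMM. A further 10 genes without a call passed with total counts in the direction they had under TMM, and 10 did so with limma on log2(FPKM + 1). Of the 103 falls and 136 rises named, 82 and 136 remained called with total counts, and no fall turned positive. Of the genes without a call, Becn1 was called without IR replicate 1 (-0.18) or 5, Egr1 without SHAM replicate 3 (0.90), Erbb2 without IR replicate 6 (0.35), Klhl38 without SHAM replicate 4 or IR replicate 1 (-0.53), and Odc1 without SHAM replicate 2 (0.20) or IR replicate 2. The cause of the shift with FPKM was not tested.

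Replicate numbers did not pair the samples: same-numbered SHAM and IR libraries had correlations of their deviations from -0.02 to 0.16. With the replicate number as a block 3591 genes rose and 3124 fell. Batch equals group in the labels, so no fit can separate them. Genes under 1 CPM rest on few counts.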
